A study of Ovis aries with 12 samples.

Results

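LIN28A, LIN28B, NR6A1, TRIM71, HMGA2, IGF2BP1, IGF2BP2 and IGF2BP3 are genes of the early embryo whose products act on the timing of development. The 8 genes were chosen by name, and rows for 6 of them stand in the table of 26247 sheep genes: LIN28A, LIN28B, NR6A1, IGF2BP1, IGF2BP2 and IGF2BP3. No row carries the name TRIM71 or HMGA2, and neither is analysed here. All 6 passed the filter on low values, which asked that 3 or more of the 12 libraries reach an FPKM of 1, as did 14595 genes in all. FPKM is the number of fragments scaled to the length of the gene and the depth of the library.

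The study sequenced RNA from whole sheep embryos of 2 breeds at 2 ages. The groups were Ujumqin embryos, the control breed, at day 16, Hulunbuir Short-tail embryos, the experimental breed, at day 16, and embryos of each breed at day 25, with 3 libraries in each group. All embryos were dissociated with enzymes before total RNA was taken with TRIzol, and the labels name no treatment and no engineered allele in any group. Each library is counted as 1 replicate; the labels do not say which animal each came from, so the p-values measure the spread between these libraries.

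The 2 LIN28 proteins bind the precursors of the let-7 microRNAs and block their maturation. LIN28A recruits the uridylyltransferases TUT4 and TUT7 to the precursors, which the exonuclease DIS3L2 then degrades. The let-7 microRNAs in turn target the LIN28 mRNAs, and the switch from LIN28 to let-7 marks the passage from early to later embryonic programmes. In the mouse, Lin28 and let-7 act on the length of the tail. NR6A1, also called GCNF, is an orphan nuclear receptor that in the mouse represses the pluripotency gene Pou5f1 and acts on the number of trunk vertebrae. IGF2BP1, IGF2BP2 and IGF2BP3 are RNA-binding proteins that bind the mRNAs of IGF2, MYC and ACTB among others, and they are known mainly from embryonic tissue.

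The genes lie apart in the genome, at the coordinates of Oar_v3.1. LIN28A (ENSOARG00000004614) is on the minus strand of chromosome 2 from 239577200 to 239590412, and LIN28B (ENSOARG00000011404) is on the minus strand of chromosome 8 from 32059283 to 32174641. NR6A1 (ENSOARG00000013368) is on the plus strand of chromosome 3 from 11238597 to 11271556. IGF2BP1 (ENSOARG00000006509) is on the minus strand of chromosome 11 from 37058898 to 37099743, IGF2BP2 (ENSOARG00000020556) is on the plus strand of chromosome 1 from 199613063 to 199775220, and IGF2BP3 (ENSOARG00000012961) is on the minus strand of chromosome 4 from 31912021 to 32061229.

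The libraries held 30464606 to 55455815 counts. The spread between libraries of a group was wider at day 16 than at day 25, with a biological coefficient of variation of 43.8% against 18.1%. Day 16 libraries also varied in their makeup of tissues, as read from the mean log2(FPKM + 1) over fixed lists of marker genes: the trophoblast and placenta list ranged from 3.76 to 5.89 in Ujumqin day 16 and from 3.66 to 4.38 in Hulunbuir day 16, and the neural progenitor list from 0.99 to 1.75 and from 1.10 to 2.84. These are bulk samples, so fewer cells of a type and less RNA per cell cannot be told apart for any gene below.

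LIN28A and LIN28B were both far lower at day 25 than at day 16, in each breed. LIN28A, the form found in pluripotent cells and early germ layers, stood at 186, 71.1 and 155 FPKM in the 3 Ujumqin day 16 libraries and at 474, 156 and 413 FPKM in the 3 Hulunbuir day 16 libraries. At day 25 it stood at 1.02, 1.24 and 0.582 FPKM in Ujumqin and at 2.86, 3.27 and 3.60 FPKM in Hulunbuir. Every day 16 library lay above every day 25 library, and at day 25 the lowest Hulunbuir library lay above the highest Ujumqin library, while at day 16 the breeds overlapped. The day 25 values rest on few reads, 14 to 26 counts per library in Ujumqin and 72 to 89 in Hulunbuir, against 2378 to 15899 at day 16.

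In edgeR's quasi-likelihood fit, with p-values adjusted by Benjamini and Hochberg over all 14595 genes, LIN28A fell from day 16 to day 25 by 7.0 ± 0.50 on the log2 scale in Ujumqin (mean ± SE, adjusted p = 2.3e-06, a 128-fold fall). In Hulunbuir it fell by 6.85 ± 0.48 (adjusted p = 6.26e-06, 115-fold). Ranked by size among all genes tested, this was fall number 65 in Ujumqin and number 19 in Hulunbuir.

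LIN28B, the paralog that acts later in many tissues, fell less. It stood at 25.0, 11.9 and 32.6 FPKM in Ujumqin day 16 and at 30.3, 15.9 and 65.2 FPKM in Hulunbuir day 16. At day 25 it stood at 3.46, 2.64 and 2.64 FPKM in Ujumqin and at 6.71, 5.91 and 4.70 FPKM in Hulunbuir. The 2 ages did not overlap in either breed, and the breeds overlapped only at day 16. LIN28B fell by 2.84 ± 0.43 on the log2 scale in Ujumqin (edgeR adjusted p = 0.000189, 7.15-fold) and fell by 2.76 ± 0.42 in Hulunbuir (adjusted p = 0.000579, 6.78-fold).

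The order of the 2 paralogs in FPKM, a scale per gene length, was opposite at the 2 ages. LIN28A stood above LIN28B in all 6 day 16 libraries, by 4.76 to 7.46 times in Ujumqin and 6.34 to 15.6 times in Hulunbuir. At day 25 it stood below LIN28B in all 6 libraries, at 0.220 to 0.470 of the LIN28B level in Ujumqin and 0.427 to 0.765 in Hulunbuir. The ratio did not overlap between ages in either breed, and it overlapped between breeds at each age. An exact two-sided permutation test of the ratio gave p = 0.1 for age in each breed, the smallest value that 3 libraries against 3 allow, and 0.16 after adjustment over the 16 comparisons of ratios and shares made.

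**Figure D1:**
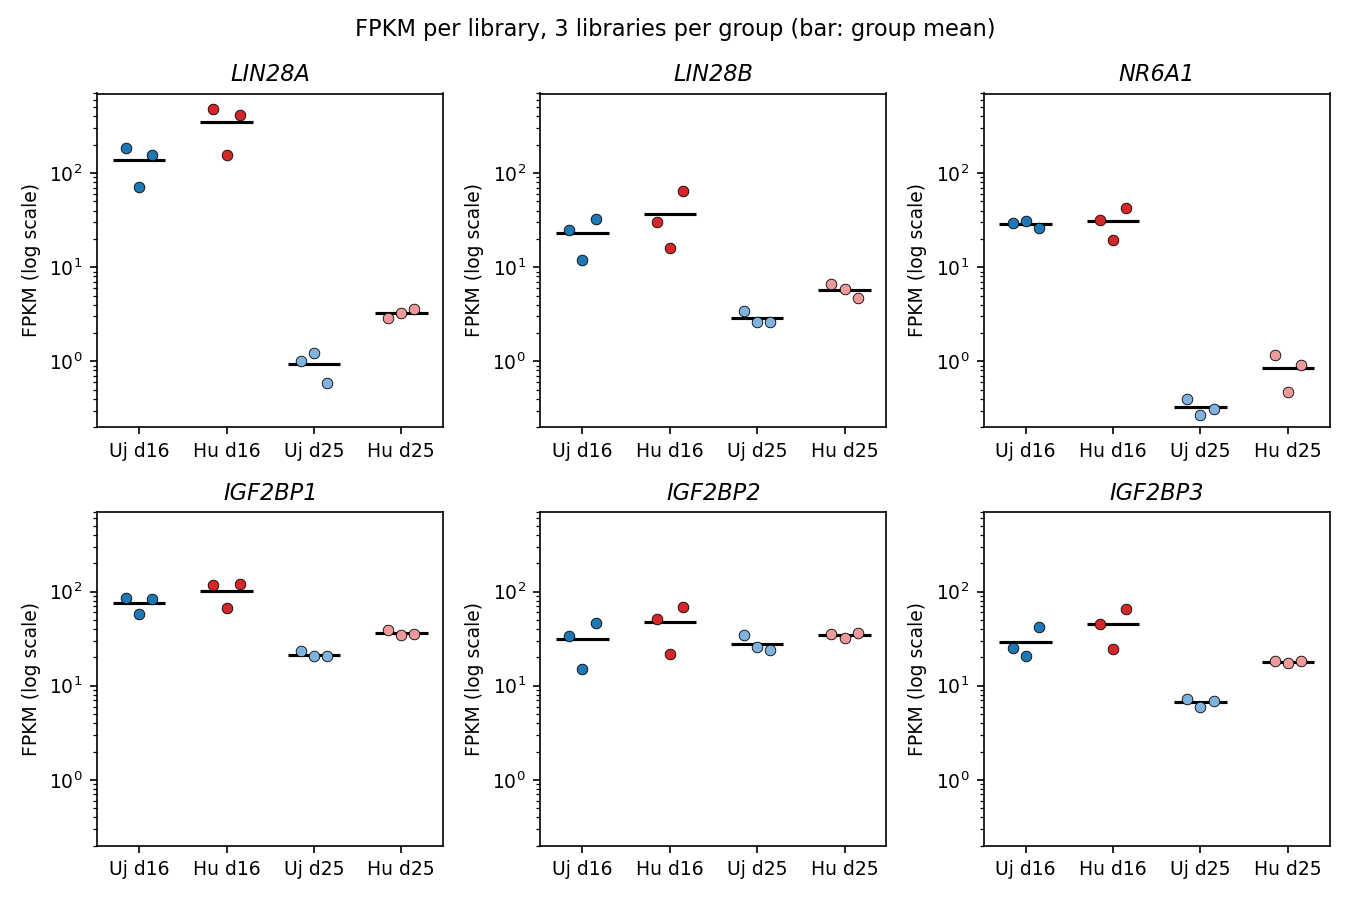
Level of each gene in FPKM on a log axis, one point per library and a bar at the mean of the 3 libraries, for Ujumqin (Uj) and Hulunbuir (Hu) at day 16 and day 25. LIN28A falls from 71.1 or more to 3.60 or less, NR6A1 from 19.5 or more to 1.16 or less, and IGF2BP2 overlaps between all groups that neighbour each other in level.

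NR6A1 was also far lower at day 25 in each breed. It stood at 29.7, 31.2 and 26.3 FPKM in the Ujumqin day 16 libraries and at 31.9, 19.5 and 42.4 FPKM in the Hulunbuir day 16 libraries. At day 25 it stood at 0.399, 0.268 and 0.309 FPKM in Ujumqin and at 1.16, 0.470 and 0.926 FPKM in Hulunbuir. The Ujumqin day 16 libraries lay within the range of the Hulunbuir ones, while at day 25 all Hulunbuir libraries lay above all Ujumqin libraries. The day 25 values come from 12 to 19 counts per library in Ujumqin and 22 to 66 in Hulunbuir. NR6A1 fell by 6.32 ± 0.36 on the log2 scale in Ujumqin (edgeR adjusted p = 8.18e-07, 79.7-fold) and fell by 5.30 ± 0.33 in Hulunbuir (adjusted p = 4.21e-06, 39.3-fold). These were falls number 78 and number 37 in size among all genes tested.

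POU5F1, the pluripotency factor that NR6A1 represses in the mouse, was also lower at day 25. Its mean was 3.92 FPKM in Ujumqin day 16 and 0.301 in Ujumqin day 25, a fall of 3.49 ± 0.76 on the log2 scale (edgeR adjusted p = 0.0021). In Hulunbuir the means were 7.01 and 1.08 FPKM, a fall of 2.83 ± 0.72 (adjusted p = 0.00927). POU5F1 was chosen for naming after its values were seen.

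IGF2BP1 and IGF2BP3 fell with age and IGF2BP2 was not shown to. IGF2BP1 stood at 85.7, 57.4 and 82.9 FPKM in Ujumqin day 16, at 118, 66.1 and 121 in Hulunbuir day 16, at 23.1, 20.5 and 20.7 in Ujumqin day 25 and at 39.5, 34.6 and 35.4 in Hulunbuir day 25. The ages did not overlap in either breed, and the breeds did not overlap at day 25. It fell by 1.67 ± 0.18 on the log2 scale in Ujumqin (edgeR adjusted p = 2.11e-05) and by 1.61 ± 0.18 in Hulunbuir (adjusted p = 0.000105).

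IGF2BP3 stood at 24.9, 20.5 and 42.4 FPKM in Ujumqin day 16, at 45.1, 24.4 and 64.7 in Hulunbuir day 16, at 7.16, 5.96 and 6.92 in Ujumqin day 25 and at 18.5, 17.4 and 18.1 in Hulunbuir day 25. Here too only the day 16 breeds overlapped. IGF2BP3 fell by 1.98 ± 0.27 on the log2 scale in Ujumqin (edgeR adjusted p = 1e-04) and fell by 1.42 ± 0.27 in Hulunbuir (adjusted p = 0.0019).

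IGF2BP2, the family member that is kept in many adult tissues, stood at 33.9, 15.1 and 46.2 FPKM in Ujumqin day 16 and at 51.7, 21.5 and 68.5 in Hulunbuir day 16. At day 25 it stood at 34.4, 25.7 and 23.8 FPKM in Ujumqin and at 35.4, 31.9 and 36.4 in Hulunbuir. Each day 25 group lay inside the range of the same breed at day 16. The age difference was -0.03 ± 0.36 on the log2 scale in Ujumqin (95% interval -0.82 to 0.76, edgeR adjusted p = 0.944) and -0.55 ± 0.36 in Hulunbuir (-1.34 to 0.24, adjusted p = 0.243). The intervals leave room for a change of close to 1 log2 unit in either direction in Ujumqin and for a fall of more than that in Hulunbuir.

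As the other 2 members fell, IGF2BP2 made up more of the family's summed FPKM at day 25. The sum over the 3 genes was 92.9 to 171 FPKM in Ujumqin day 16, 112 to 254 in Hulunbuir day 16, 51.4 to 64.6 in Ujumqin day 25 and 83.9 to 93.4 in Hulunbuir day 25. The IGF2BP2 share of that sum was 16.2 to 26.9% in Ujumqin day 16 and 19.2 to 27.0% in Hulunbuir day 16, and it was 46.2 to 53.3% in Ujumqin day 25 and 37.9 to 40.5% in Hulunbuir day 25. IGF2BP1 held the largest share in all 6 day 16 libraries, 47.5 to 61.7%. At day 25 its share was 35.7 to 40.3% in Ujumqin and 39.3 to 42.3% in Hulunbuir. The IGF2BP3 share at day 25 was 11.1 to 13.5% in Ujumqin and 19.8 to 20.7% in Hulunbuir, against 17.2 to 25.5% over the day 16 libraries. Between the breeds at day 25 the shares of IGF2BP2 and IGF2BP3 did not overlap, each with an exact two-sided permutation p of 0.1 (0.16 adjusted), the smallest that the design allows.

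**Figure D2:**
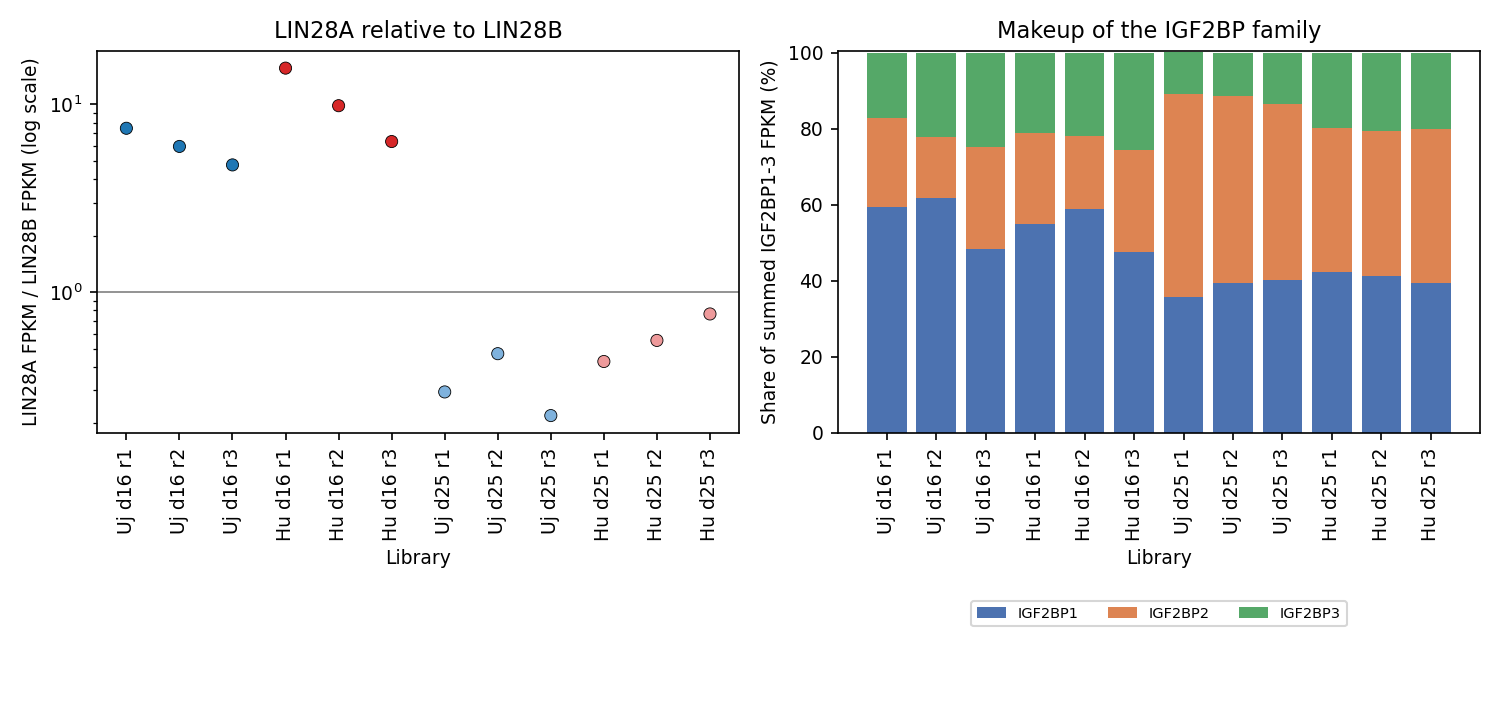
Left, LIN28A FPKM divided by LIN28B FPKM in each library (r1 to r3 are replicates), on a log axis with a line at equal levels; right, the share in percent of the summed FPKM of IGF2BP1, IGF2BP2 and IGF2BP3 held by each gene in each library. The ratio is 4.76 or more in every day 16 library and 0.765 or less in every day 25 library, and the IGF2BP2 share is 27.0% or less at day 16 and 37.9% or more at day 25.

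Counted together, 5 of the 6 genes fell with age in Ujumqin, where 63.6% of all genes tested passed the threshold of an adjusted p under 0.05 (32.9% lower, 30.7% higher). The same count was 5 of 6 in Hulunbuir, where 40.5% of all genes passed (21.6% lower, 18.9% higher). The median change of the 6 genes was -2.41 on the log2 scale in Ujumqin, beside -0.07 over all genes, and -2.18 in Hulunbuir, beside -0.04. The 5 are the same in both breeds, all but IGF2BP2. In each breed the FPKM ranges of the 2 ages were also apart, with day 25 lower, for these 5 genes, as they were for 36.9% of all genes in Ujumqin and 21.6% in Hulunbuir. Scaling by total counts in place of TMM moved the share of the Hulunbuir age calls that were higher at day 25 from 46.6% to 61.7% and the median gene to 0.14. All 10 of these age calls held under every alternative tried.

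**Figure D3:**
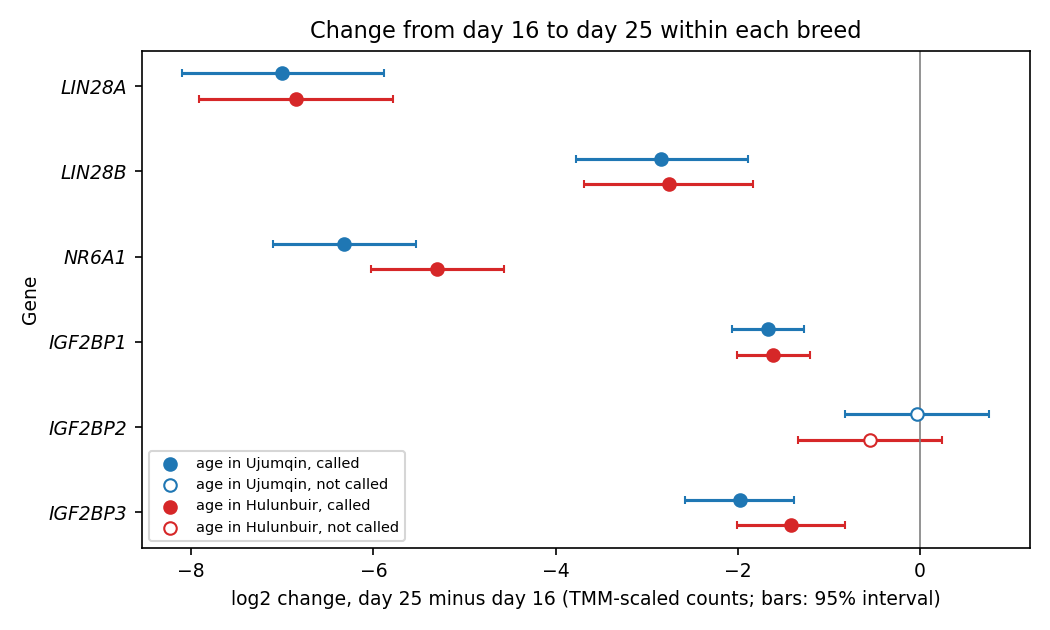
Change in log2 units from day 16 to day 25 of each gene in Ujumqin and Hulunbuir, from counts scaled by TMM; bars are 95% intervals of the model and filled points passed an adjusted p of 0.05. LIN28A lies at -7.0 and -6.85, NR6A1 at -6.32 and -5.30, and the intervals of IGF2BP2 cross 0 in both breeds.

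Levels of other tissues moved with age as well. The counts of called genes below stand beside 32.9% of all genes lower and 30.7% higher in Ujumqin, and 21.6% lower and 18.9% higher in Hulunbuir. The neural progenitor list stood at 3.25 to 3.53 in Ujumqin day 25 and 4.06 to 4.14 in Hulunbuir day 25, above every day 16 library. The trophoblast and placenta list stood at 2.73 to 2.99 and 2.73 to 2.75, below every day 16 library. Of its 13 tested genes, 9 fell in Ujumqin and 6 in Hulunbuir. The epiblast and primitive streak list stood at 1.14 to 1.33 in Ujumqin day 16, 1.29 to 1.84 in Hulunbuir day 16, 1.08 to 1.22 in Ujumqin day 25 and 1.34 to 1.41 in Hulunbuir day 25. The yolk sac endoderm and liver list stood at 6.83 to 7.74 in Ujumqin day 16 and 4.67 to 5.18 at day 25, with 15 of 18 genes lower, and stood at 5.48 to 6.4 and 6.01 to 6.17 in Hulunbuir, with 7 lower and 4 higher. The erythroid list stood at 2.08 to 2.91 in Hulunbuir day 16 and 7.12 at day 25, with 11 of 12 genes higher, and at 4.38 to 6.07 and 4.61 to 4.67 in Ujumqin, with 2 higher and 6 lower. The cell cycle list stood at 5.12 to 5.40, 5.03 to 5.57, 5.09 to 5.20 and 5.47 to 5.53 in Ujumqin day 16, Hulunbuir day 16, Ujumqin day 25 and Hulunbuir day 25. The part of these tissues in the falls above was not tested.

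At day 25, 4 of the 6 genes were higher in Hulunbuir than in Ujumqin, where 46.0% of all genes tested passed the threshold, 23.3% as higher and 22.7% as lower. The 4 were LIN28A, LIN28B, IGF2BP1 and IGF2BP3. The median difference of the 6 genes was 0.85 on the log2 scale, beside 0.03 over all genes. FPKM ranges were apart, with Hulunbuir higher, for 5 of the 6 genes, all but IGF2BP2, and for 49.1% of all genes. Scaling by total counts in place of TMM moved the median gene to 0.35 on the log2 scale and the share of calls that were higher in Hulunbuir from 50.6% to 80.3%, and the FPKM values carry a like shift, with a median difference of 0.29. The log2 differences given here are those after TMM scaling.

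IGF2BP3 had the smallest adjusted p of the 6. It was higher by 1.10 ± 0.10 on the log2 scale (95% interval 0.87 to 1.33, edgeR adjusted p = 0.000102), with group means of 6.68 ± 0.638 FPKM in Ujumqin and 17.99 ± 0.571 in Hulunbuir (SD, n = 3), and it passed under all 15 alternatives tried. IGF2BP1 was higher by 0.44 ± 0.07 (0.28 to 0.61, adjusted p = 0.00161), from 21.42 ± 1.42 to 36.51 ± 2.65 FPKM (SD, n = 3). Its call was lost when all 12 libraries shared 1 estimate of the spread (adjusted p = 0.143).

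LIN28A was higher by 1.41 ± 0.38 on the log2 scale (95% interval 0.54 to 2.28, edgeR adjusted p = 0.016), from 0.946 ± 0.334 to 3.245 ± 0.368 FPKM (SD, n = 3). That call was lost without Hulunbuir day 25 replicate 2 (adjusted p = 0.051) or replicate 3 (0.0626), with all 12 libraries in 1 fit (0.0576), and with limma's voom (0.149). LIN28B was higher by 0.66 ± 0.21 (0.17 to 1.15, adjusted p = 0.0334), from 2.912 ± 0.474 to 5.778 ± 1.01 FPKM (SD, n = 3). It was lost without Ujumqin day 25 replicate 2 (adjusted p = 0.0787) or 3 (0.0805), without Hulunbuir day 25 replicate 1 (0.135) or 2 (0.0977), with all 12 libraries (0.323) and with voom (0.246). The direction stayed the same for both genes in each of these.

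NR6A1 was not called at day 25 though its FPKM ranges were apart. Its difference was 1.04 ± 0.48 on the log2 scale (95% interval -0.05 to 2.14, edgeR adjusted p = 0.108), with the widest interval of the 6 genes. It passed under total count scaling (adjusted p = 0.0441), which moves the median gene upwards too, and with limma on log2(FPKM + 1) (0.0483) and log2(FPKM + 0.1) (0.0458). IGF2BP2 differed by -0.01 ± 0.11 (-0.27 to 0.24, adjusted p = 0.929), and this sign turned to 0.30 under total count scaling and to 0.31 and 0.32 with limma on the 2 FPKM scales, none of them past the threshold.

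**Figure D4:**
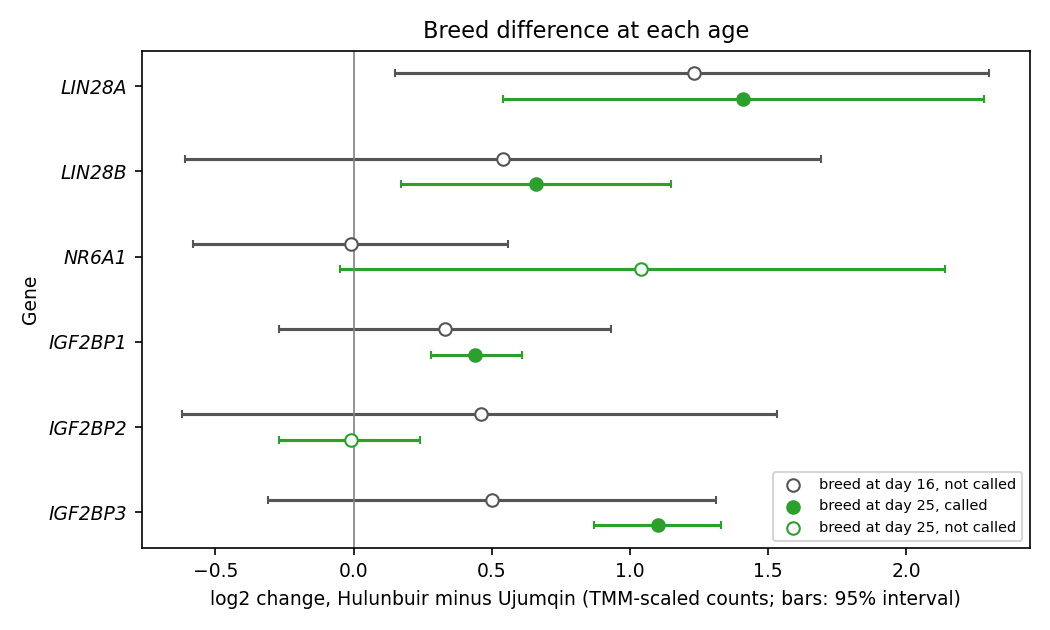
Difference in log2 units between Hulunbuir and Ujumqin at day 16 and at day 25 for each gene, from counts scaled by TMM; bars are 95% intervals of the model and filled points passed an adjusted p of 0.05. At day 25 the intervals of LIN28A, LIN28B, IGF2BP1 and IGF2BP3 lie above 0, and at day 16 no gene is called in this fit, which has no replicate block.

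The day 25 breeds also differed in markers of several tissues. The counts of called genes below stand beside 23.3% of all genes called higher in Hulunbuir and 22.7% called lower. The list levels are on the FPKM scale, which carries a median difference of 0.29 towards Hulunbuir. The erythroid list stood at 4.61 to 4.67 in Ujumqin and at 7.12 in all 3 Hulunbuir libraries, with 11 of 12 tested genes higher. The yolk sac endoderm and liver list stood at 4.67 to 5.18 and 6.01 to 6.17, with 13 of 18 higher and 1 lower. The neural progenitor list stood at 3.25 to 3.53 and 4.06 to 4.14, with 5 of 11 tested genes higher, 1 lower and 5 not called. The mesenchyme list was lower, at 7.87 to 8.65 in Ujumqin and 7.45 to 7.48 in Hulunbuir, with 7 of 10 lower and 1 higher. The immediate early and dissociation list, which marks handling of the cells, stood at 4.67 to 5.23 and 3.83 to 3.87, with 8 of 11 lower and 2 higher. The leukocyte list stood at 1.16 to 1.28 and 1.43 to 1.57, and the uterine endometrium list at 2.01 to 2.14 and 2.03 to 2.07. Their part in the differences of LIN28A, LIN28B, IGF2BP1 and IGF2BP3 was not tested.

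At day 16 none of the 6 genes passed edgeR's test between breeds without a replicate block, in a comparison where 0.0206% of all genes passed. At an unadjusted p under 0.05 there was 1, LIN28A, and no gene of the 6 was called by DESeq2, voom or limma. LIN28A had means of 137.6 ± 59.6 FPKM in Ujumqin and 347.7 ± 168.5 in Hulunbuir (SD, n = 3), a difference of 1.23 ± 0.46 on the log2 scale (95% interval 0.15 to 2.30, edgeR adjusted p = 0.205). It passed with all 12 libraries in 1 fit (adjusted p = 0.0452). In that fit day 16 shares 1 estimate of the spread with the less variable day 25, and 2459 genes passed in place of 3. Day 16 libraries of the same replicate number deviated together across the breeds, though the labels give no pairing and it was not settled. With the replicate number as a block LIN28A was higher in Hulunbuir by 1.22 ± 0.14 (edgeR adjusted p = 0.041) and 293 genes passed in place of 3. The other 5 genes were not called with the block. For the other 5 genes the differences were 0.54 ± 0.49 for LIN28B, -0.01 ± 0.24 for NR6A1, 0.33 ± 0.25 for IGF2BP1, 0.46 ± 0.46 for IGF2BP2 and 0.50 ± 0.35 for IGF2BP3. Their edgeR adjusted p-values ran from 0.439 to 0.983. The day 25 differences of LIN28A, LIN28B, IGF2BP1 and IGF2BP3 all lay inside the 95% intervals of their day 16 differences without the block, and that of NR6A1 lay outside its own.

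At day 16 the same replicate was low for most of the genes in each breed. Replicate 2 of Ujumqin day 16 had the lowest FPKM of its group for 5 of the 6 genes, all but NR6A1, and replicate 2 of Hulunbuir day 16 had the lowest for all 6. LIN28A in these 2 libraries was 71.1 and 156 FPKM, below both other libraries of the group in each breed. The same 2 libraries had the lowest neural progenitor level of their groups, 0.99 and 1.10. Ujumqin replicate 2 also had the highest trophoblast and placenta level, 5.89, and Hulunbuir replicate 2 the highest mesenchyme level of its group, 7.81. Their part in the low values was not tested. Without either of these libraries the age falls of the 5 genes remained past the threshold.

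Whether the change with age differed between the breeds was tested as an interaction, in which 19.2% of all genes passed (8.89% higher, 10.3% lower) and none of the 6 did by edgeR. Total count scaling moved the median gene of this test to 0.25 and the share of its calls that were positive from 46.3% to 73.4%. NR6A1 came nearest: it fell less in Hulunbuir by 1.02 ± 0.43 on the log2 scale (95% interval 0.08 to 1.96, unadjusted p = 0.0362, edgeR adjusted p = 0.115), and it passed without Hulunbuir day 25 replicate 2 (1.30, adjusted p = 0.0401). It was the 1 gene at an unadjusted p under 0.05, and no other tool called any of the 6. The interaction was 0.14 ± 0.57 for LIN28A (-1.10 to 1.39), 0.08 ± 0.57 for LIN28B (-1.17 to 1.32) and 0.07 ± 0.25 for IGF2BP1 (-0.48 to 0.62). It was 0.55 ± 0.37 for IGF2BP3 (-0.26 to 1.37) and -0.52 ± 0.51 for IGF2BP2 (-1.63 to 0.60). The age and breed comparisons share libraries, so their values for a gene are not independent.

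Of the 3 genes that work with LIN28 on let-7 precursors, TUT4 and DIS3L2 did not pass the test with age in either breed and TUT7 fell in Ujumqin. TUT4 had means of 8.44, 12.8, 8.40 and 14.4 FPKM in Ujumqin day 16, Hulunbuir day 16, Ujumqin day 25 and Hulunbuir day 25, with age differences of 0.16 ± 0.37 in Ujumqin (edgeR adjusted p = 0.724; 0.0422 without Ujumqin day 16 replicate 3) and 0.07 ± 0.37 in Hulunbuir (0.895). DIS3L2 differed by -0.02 ± 0.12 (adjusted p = 0.899) and -0.17 ± 0.12 (0.283). TUT7 fell in Ujumqin by 1.07 ± 0.24 (adjusted p = 0.00234) and in Hulunbuir gave -0.46 ± 0.24 (0.139; 0.0156 without Hulunbuir day 16 replicate 1). These 3 genes were named after their values were seen. Of the 8 genes tested in the list of let-7 precursor tailing and decay, 2 rose and 3 fell in Ujumqin, and 3 fell and 5 did not pass in Hulunbuir, close to the 63.6% and 40.5% of all genes that passed. Both KHSRP, which promotes let-7 processing, and TENT4B, a noncanonical poly(A) polymerase, fell in each breed. KHSRP fell by 1.75 ± 0.20 in Ujumqin (edgeR adjusted p = 3.08e-05) and by 1.09 ± 0.20 in Hulunbuir (0.00159), and TENT4B by 2.49 ± 0.26 (1.7e-05) and 1.63 ± 0.25 (0.000612). At day 25, 3 of the 8 were higher in Hulunbuir, beside 23.3% of all genes, and 5 did not pass. KHSRP was higher by 0.78 ± 0.10 (edgeR adjusted p = 0.000598) and TUT4 by 0.45 ± 0.10 (0.0064), the latter lost with voom (0.0615) and with all 12 libraries in 1 fit (0.472). TENT4B was higher by 0.56 ± 0.20 (0.0485), a call lost without Ujumqin day 25 replicate 2 or 3 or any Hulunbuir day 25 replicate (0.0661 to 0.156), and also with RLE scaling (0.055), DESeq2 (0.0591), voom (0.106), no filter (0.0563) and all 12 libraries (0.178).

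Among the 13 genes of the general microRNA machinery, 9 fell and 3 rose with age in Ujumqin, and 6 fell and 7 did not pass in Hulunbuir, beside 63.6% and 40.5% of all genes that passed. The list's medians were -1.24 and -0.73 on the log2 scale. The Argonaute genes AGO4 and AGO1, whose products carry the mature microRNA, fell by 2.34 ± 0.31 (edgeR adjusted p = 8.03e-05) and 2.12 ± 0.30 (0.000125) in Ujumqin and by 1.46 ± 0.30 (0.00316) and 1.51 ± 0.30 (0.00242) in Hulunbuir. DROSHA, the nuclease that cuts the primary transcript, rose in Ujumqin by 1.24 ± 0.12 (adjusted p = 1.05e-05), and PRKRA, a partner of Dicer, rose by 1.80 ± 0.22 (4.31e-05). The age change of DROSHA differed between breeds, being smaller in Hulunbuir by 1.25 ± 0.17 (interaction, adjusted p = 0.00133). For PRKRA the interaction was -1.24 ± 0.30 (0.0173), lost without Ujumqin day 25 replicate 3 (0.057) under total count scaling (0.0837) and with limma (0.107 and 0.105). At day 25, 6 of the 13 were higher in Hulunbuir and 1 lower, beside 23.3% and 22.7% of all genes; TNRC6A, an Argonaute partner in silencing, was higher by 1.20 ± 0.16 (edgeR adjusted p = 0.000663), AGO4 was higher by 0.99 ± 0.22 (0.006, lost with all 12 libraries in 1 fit at 0.0531) and DROSHA was lower by 0.53 ± 0.07 (0.000508), the latter not called by limma on log2(FPKM + 1) (0.101).

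Of 21 known let-7 targets tested, 10 fell and 6 rose with age in Ujumqin, with a median of -0.73, and 7 fell and 3 rose in Hulunbuir, with a median of -0.63. DICER1 is counted both here and in the microRNA machinery above. The 16 called in Ujumqin and the 10 called in Hulunbuir stand beside 63.6% and 40.5% of all genes, shares near those of the list. In both lists of calls the directions were mixed. ARID3A, a DNA-binding factor of the early embryo, fell from 124.9 to 9.44 FPKM in Ujumqin, by 3.58 ± 0.17 on the log2 scale (edgeR adjusted p = 4.68e-07), and from 76.7 to 31.4 FPKM in Hulunbuir, by 1.46 ± 0.15 (7.57e-05). The difference between the breeds in this fall passed the test, at 2.12 ± 0.22 (adjusted p = 0.000386). ARID3B, a paralog of ARID3A, fell by 1.77 ± 0.19 in Ujumqin (1.79e-05) and fell by 1.78 ± 0.19 in Hulunbuir (7.42e-05). The genes that rose included HRAS, a small GTPase, by 1.25 ± 0.20 in Ujumqin (0.00032) and 1.07 ± 0.20 in Hulunbuir (0.00202), and the mitotic kinase AURKB, by 1.34 ± 0.13 in Ujumqin (1.21e-05).

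At day 25, 10 of the 21 targets were higher in Hulunbuir and 1 was lower, with a list median of 0.36, beside 23.3% and 22.7% of all genes. MYCN, a growth-promoting transcription factor, stood at 8.12 FPKM in Ujumqin and 30.7 in Hulunbuir, higher by 1.60 ± 0.18 on the log2 scale (edgeR adjusted p = 0.000265). PLAGL2, a zinc finger factor, was higher by 1.56 ± 0.19 (0.00041) and ARID3A by 1.41 ± 0.10 (3.86e-05). ARID3A was named here after its value was seen. NRAS, also a small GTPase, was the gene that was lower, with a difference of -0.72 ± 0.12 (0.00172). The interaction of breed and age passed for 5 of the 21, near the 19.2% of all genes, higher for ARID3A, MYC and PLAGL2 (1.74 ± 0.54, 0.0439) and lower for AURKB (-0.83 ± 0.18, 0.0123) and NRAS (-0.70 ± 0.19, 0.0272). The PLAGL2 call held without Ujumqin day 16 replicate 1 or 2, Hulunbuir day 16 replicate 3 or Ujumqin day 25 replicate 1. It was lost without any other single library (0.0539 to 0.0982), with voom (0.0611) and with limma on log2(FPKM + 1) (0.0567). The NRAS call was lost without Ujumqin day 16 replicate 1, Ujumqin day 25 replicate 2 or 3, or any Hulunbuir day 25 replicate (0.0545 to 0.1). Voom (0.0911) and no filter (0.0834) also ended it. The AURKB call was lost under total count scaling (-0.54, 0.119) and with limma on both FPKM scales (0.125 and 0.124), as was that of NRAS (0.218 with total counts). HMGA1, the chromatin protein related to HMGA2, was not called, at 0.28 ± 0.26 (0.409).

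**Figure D5:**
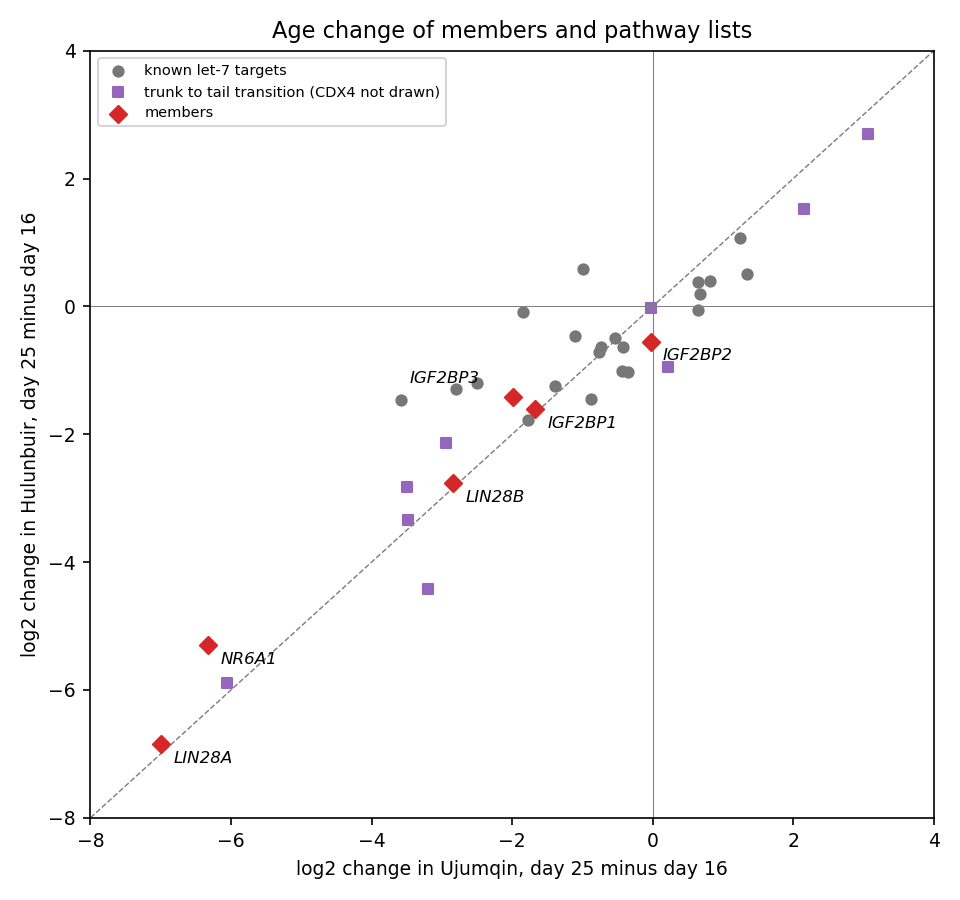
Change in log2 units from day 16 to day 25 in Ujumqin (horizontal axis) and Hulunbuir (vertical axis) for the 6 genes (diamonds), the 21 tested let-7 targets (circles) and the tested genes of the trunk to tail transition (squares), with a dashed line at equal change. LIN28A and NR6A1 lie at the lower left, while the let-7 targets lie on both sides of 0.

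MYC, which is bound by the IGF2BPs and is also a let-7 target, changed with age in opposite directions in the breeds. It fell in Ujumqin from 41.6 to 19 FPKM, by 0.99 ± 0.18 on the log2 scale (edgeR adjusted p = 0.000651). It rose in Hulunbuir from 28.8 to 48.2 FPKM, by 0.58 ± 0.18 (0.0236), a call that was lost without Hulunbuir day 16 replicate 3 (0.0715) or Hulunbuir day 25 replicate 2 (0.0744) or 3 (0.0686). The interaction was 1.57 ± 0.25 (adjusted p = 0.00303), and at day 25 MYC was higher in Hulunbuir by 1.02 ± 0.13 (0.000425). BTRC, a ubiquitin ligase subunit whose mRNA IGF2BP1 binds, behaved in the same order: it fell by 0.75 ± 0.19 in Ujumqin (0.0055) and rose by 0.74 ± 0.19 in Hulunbuir (0.0108), with an interaction of 1.49 ± 0.27 (0.00524).

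With MYC and BTRC included, 7 IGF2BP-bound mRNAs were tested. In Ujumqin 4 fell and 1 rose with age, beside 32.9% and 30.7% of all genes. In Hulunbuir 2 fell and 2 rose, beside 21.6% and 18.9% of all genes, and the 2 that rose were MYC and BTRC. The day 25 breed comparison gave these same 2 as higher and 4 as lower in the Hulunbuir embryos, beside 23.3% and 22.7% of all genes. The 4 were IGF2, ACTB, CD44 and GLI1. ACTB was lower after TMM scaling, while its mean FPKM was higher in Hulunbuir, at 1240 against 1140 in Ujumqin, with overlapping libraries. IGF2, the growth factor that gave the family its name, stood at 567 FPKM in Ujumqin day 16, 427 in Hulunbuir day 16, 317 in Ujumqin day 25 and 274 in Hulunbuir day 25. It fell by 0.69 ± 0.25 in Ujumqin (edgeR adjusted p = 0.0318) and by 0.80 ± 0.25 in Hulunbuir (0.0266), and both calls lay near the threshold. The Ujumqin call was lost without day 16 replicate 1 or 3 or any of the 3 day 25 replicates (adjusted p 0.0533 to 0.119). It was also lost with the replicate block (0.0504) and with only the 6 libraries of the breed (0.0667). The Hulunbuir call was lost without day 16 replicate 2 or 3 or any of the 3 day 25 replicates (0.0524 to 0.0931). Total count scaling (-0.61, 0.0855) and limma on both FPKM scales (0.0807 and 0.0825) also ended it. The direction stayed the same in all of these. At day 25 IGF2 was lower in Hulunbuir by 0.54 ± 0.09 (0.00132), lost under total count scaling (-0.22, 0.0796), with limma (0.0917 and 0.0945) and with all 12 libraries (0.141). CD44, a cell surface receptor, was lower in Hulunbuir at day 25, with 5.44 against 19.3 FPKM, by 2.16 ± 0.10 (3.83e-06), lost with all 12 libraries in 1 fit (0.214). GLI1, a Hedgehog target, was lower by 0.68 ± 0.10 at day 25 (0.000827), rose with age in Ujumqin by 1.54 ± 0.22 (0.000137), and had an interaction of -1.61 ± 0.31 (0.00646).

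Genes of the transition from trunk to tail, the process in which NR6A1 acts in the mouse, held falls and rises with age. Of the 10 tested, 6 fell and 2 rose in Ujumqin, with a median of -3.07 on the log2 scale, and 6 fell and 1 rose in Hulunbuir, with a median of -2.49. Over all genes, 32.9% fell and 30.7% rose in Ujumqin, and 21.6% fell and 18.9% rose in Hulunbuir. CDX2, a homeobox factor of the tailbud and of trophoblast, had means of 12.3 and 17.3 FPKM at day 16 and of 0.157 and 0.319 at day 25, in Ujumqin and Hulunbuir. It fell by 6.05 ± 1.38 (edgeR adjusted p = 0.00279) and 5.89 ± 1.32 (0.00495). CDX4, its paralog, had no count in any day 25 library and stood at 0.817 to 3.71 FPKM in Ujumqin day 16 and 0.791 to 10.9 in Hulunbuir day 16. Against a floor of 3 counts per library it was at least 18.1-fold lower at day 25 in Ujumqin and at least 56.3-fold lower in Hulunbuir.

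TBXT, the T-box gene of the tailbud and notochord, fell by 3.20 ± 0.74 in Ujumqin (edgeR adjusted p = 0.0029) and 4.42 ± 0.75 in Hulunbuir (0.00105). SALL4, a zinc finger factor of early progenitors, fell by 3.48 ± 0.36 (1.52e-05) and 3.34 ± 0.35 (7.43e-05). Both were named for age after their values were seen. The posterior HOX gene HOXD10 rose by 3.07 ± 0.42 in Ujumqin (9.36e-05) and 2.69 ± 0.42 in Hulunbuir (0.000613). HOXC10 rose by 2.16 ± 0.58 in Ujumqin (0.0072) and gave 1.53 ± 0.57 in Hulunbuir (0.0512), a value that passed under 9 of 21 alternatives, among them DESeq2 (0.0139) and leaving out Ujumqin day 16 replicate 2 (0.0257) or Hulunbuir day 16 replicate 1 (0.0364).

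At day 25 SALL4 was higher in Hulunbuir, with 3.14 against 0.856 FPKM, by 1.54 ± 0.17 on the log2 scale (edgeR adjusted p = 0.000265). GDF11, the signal that in the mouse sets the start of the tail, was higher by 0.63 ± 0.18 (0.0198), lost without Ujumqin day 25 replicate 3 (0.0512) or Hulunbuir day 25 replicate 1 (0.0738) or 3 (0.0596) or with all 12 libraries (0.0744). HOXD10 was lower by 0.66 ± 0.23 (0.0418), a call lost without Ujumqin replicate 1 or 3 or any of the 3 Hulunbuir replicates (0.0819 to 0.116). Under total count scaling HOXD10 gave -0.36 (0.264), with limma -0.26 and -0.28 (0.372 and 0.383), and with all 12 libraries -0.71 (0.234). TGFBR1, a receptor of GDF11, was not called, at 0.53 ± 0.36 (0.266), and was called without Ujumqin day 25 replicate 1 (1.06, 0.00875).

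Genes whose level followed that of each member most closely over the 12 libraries were sought among 11671 named genes, by Pearson's r of log2 TMM-scaled counts, as a description; all points share libraries, and the 2 ages set most of each r. KPNB1, an importin of nuclear import, was nearest to LIN28A (r = 0.998, and 0.95 for the deviations of libraries from their group means). Its mean level fell only from 155 to 62.3 FPKM in Ujumqin and from 185 to 91.5 in Hulunbuir, since r takes no account of the size of a change. ARID3B (0.988) and the glycolytic enzyme gene PGAM1 (0.986) came next. The nearest to LIN28B were PRRC2C (0.988), the importin gene TNPO1 (0.986) and the ubiquitin ligase gene HUWE1 (0.984).

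The nearest to NR6A1 were the monocarboxylate transporter gene SLC16A1 (r = 0.989), the chloride transporter gene CLCN5 (0.989) and the cell cycle kinase gene WEE1 (0.988). For SLC16A1 the r of deviations was 0.08, so that likeness lay between the groups and not within them. The nearest to IGF2BP1 were ARID3B (0.995), KPNB1 (0.991) and the peptidase gene TPP2 (0.99), and the nearest to IGF2BP3 were PRRC2B (0.991), the importin gene IPO11 (0.986) and the splicing factor kinase gene SRPK1 (0.986). IGF2BP2 had its nearest genes at lower values, FBXL7 (0.966), the axon guidance receptor gene ROBO2 (0.952) and ZHX2 (0.947), and there the deviations within groups gave 0.97 for each.

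Among the members themselves, r over the 12 libraries was 0.99 between LIN28A and IGF2BP1, 0.98 between LIN28A and NR6A1 and 0.97 between LIN28A and LIN28B. It was 0.33 between LIN28A and IGF2BP2, whose level did not separate the ages. Within groups the picture differed: the deviations of LIN28A and IGF2BP2 gave 0.81, those of LIN28B and IGF2BP2 0.90, and those of LIN28A and NR6A1 0.09. Replicate 2 of each breed at day 16 was low in both LIN28B and IGF2BP2, and replicate 3 was high in both. This did not hold in every group. Hulunbuir day 25 replicate 3 was the lowest of its group in LIN28B (deviation -0.28 on the log2 scale) and the highest in IGF2BP2 (0.08). NR6A1 varied apart from LIN28A.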

How the data were processed

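The deposited table holds, per gene and library, raw read counts and FPKM made by the authors; per the submitters' processing notes, reads were trimmed with cutadapt 1.9, checked with FastQC and set against Oar_v3.1, while the sources used here do not give the aligner, counter or strand setting. Count divided by FPKM was scaled to its median in each library. For a gene it was then constant over the 12 libraries within 0.147% (median range, 8029 genes with over 200 counts in every library). The authors' FPKM of 0.0001 stands for a count of 0 and was read as 0. Names for 1300 genes without one were taken from RefSeq by gene number.

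Counts were tested with edgeR 4.0.16 (quasi-likelihood, TMM scaling, R 4.3.3): breed within an age on its 6 libraries, age within a breed and the interaction on all 12 libraries with 4 group means, calling genes at 0.05 after Benjamini-Hochberg adjustment. The scripts were tested on simulated data. Whether replicate numbers pair libraries was looked at through correlated deviations from group means over genes. The 3 same-numbered pairs of day 16 breeds gave 0.16, 0.31 and 0.38, while all other same-numbered pairs lay between -0.06 and 0.09. The labels give no pairing, and no pairs of different numbers were set beside these. The values therefore cannot settle whether the day 16 libraries were paired, and the replicate block is an alternative only. Alternatives used DESeq2 1.42.0, limma 3.58.1, other scalings, no filter and a replicate block, left out single libraries, and changed which libraries share a spread. SE is the log2 change over the root of F.

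The members, lists and fits were chosen with earlier results of these data known; the rule names genes and records no value, so their tests describe these genes and support nothing about the choice. Named pathway genes come from up to 2 called genes per direction with the largest change, and the highest uncalled gene, in each of 5 pathway lists; not every such gene is named. The 10 marker lists only show tissues. In the likeness search, rows named as small RNAs were left out, a choice made after the files were seen. No reference sequence was used here.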

Additional observations from a re-analysis of the deposited data

How the results depend on the processing

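For the 6 genes, 30 results were recomputed under 552 alternatives in all; 509 kept direction and side of the threshold, 11 calls were lost, 6 were gained and 26 changed sign, all of these in uncalled results. Members called between breeds at day 16 went from 0 to 1 with the replicate block (LIN28A, 1.22, adjusted p = 0.041) and to 1 with all 12 libraries. At day 25 they went from 4 to 2 with voom and 1 with all 12 libraries, and to between 2 and 4 without single libraries; in the interaction from 0 to between 0 and 1. The cause was not tested.

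Genes called at day 16 between breeds numbered 3 (2955 at an unadjusted p under 0.05), and 1608 with DESeq2, 487 with voom, 293 with the replicate block, 2459 with all 12 libraries, 0 to 200 without single libraries, and 0 with limma on either FPKM scale (2733 and 2755 unadjusted). At day 25 they numbered 6716, 2440 with all 12 libraries and 4955 to 8117 without single libraries. In the interaction they numbered 2804, and 1561 to 3337 without single libraries, lowest without Hulunbuir day 25 replicate 1.

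Sign changes near 0 were these. NR6A1 at day 16 was 0.11 with total counts, 0.04 with limma on each scale and ran from -0.18 to 0.18 without single libraries. IGF2BP2 at day 25 was 0.30 with total counts, 0.31 and 0.32 with limma, and 0.12 and 0.03 without Ujumqin replicate 1 or Hulunbuir replicate 2. IGF2BP2 with age in Ujumqin was 0.08 with voom and with the replicate block, and ran from -0.35 to 0.29 without single libraries (0.0019 and 0.01 among them). Without single libraries the interaction ran from -0.05 to 0.21 for IGF2BP1, from -0.11 to 0.46 for LIN28A (-0.15 with limma on log2(FPKM + 1)) and from -0.20 to 0.62 for LIN28B. DIS3L2 with age was 0.01 with RLE scaling and DESeq2 in Ujumqin and 0.01 with total counts in Hulunbuir. TUT4 with age ran from -0.10 to 0.75 in Ujumqin and from -0.11 to 0.51 in Hulunbuir without single libraries.

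The replicate block changed no other member call. At day 25 it ended the calls of HOXD10 (-0.62, adjusted p = 0.0657) and TENT4B (0.56, 0.0862), where same-numbered libraries correlated between 0.01 and 0.04. With age it ended the call of IGF2 in Ujumqin (-0.67, 0.0504) and added HOXC10 in Hulunbuir (1.67, 0.0384). The age fits held all 12 libraries and so included the day 16 breed pairs at 0.16, 0.31 and 0.38. The 12 replicate pairs differed by more than sampling noise, and each library was counted on its own. That difference cannot show whether the libraries came from separate animals.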

Other observations

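The table also holds rows for microRNA loci of the family that LIN28 acts on. The let-7 family had 10 rows, 3 of them at 0 in every library, with 155 counts over the 12 libraries, of which oar-let-7d held 76 and MIRLET7I 66. Summed over the rows, libraries held 4 to 9 counts in Ujumqin day 16, 6 to 12 in Hulunbuir day 16, 11 to 14 in Ujumqin day 25 and 19 to 27 in Hulunbuir day 25. Scaled to library size (CPM), the sums were 0.0801 to 0.177 in Ujumqin day 16, 0.117 to 0.268 in Hulunbuir day 16, 0.336 to 0.460 in Ujumqin day 25 and 0.546 to 0.681 in Hulunbuir day 25, so the sums of the ages did not overlap in either breed. The rows did not all move alike. In Hulunbuir oar-let-7d held 2, 0 and 3 counts at day 16 and 20, 11 and 13 at day 25. MIRLET7I held 4, 7 and 9 counts there at day 16 and 6, 5 and 6 at day 25. In Ujumqin oar-let-7d went from 0, 5 and 5 counts to 3, 8 and 6, and MIRLET7I from 4, 4 and 2 to 6, 6 and 7. No test was made on these rows. The labels do not name a selection of small RNA, and reads at these loci can come from longer transcripts that cross them, so the counts are not a measure of mature let-7. The 3 rows of mir-125 held 1 count in all. MIR99B held 14 counts, all in Hulunbuir day 25, with 7, 5 and 2 in the 3 libraries.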
